A study of Mus musculus with 10 samples.

Results

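The genes described here are 10 that encode sialic acid binding lectins, related inhibitory receptors of myeloid cells, and the phosphatase that many of them recruit: Siglech, Siglece, Siglec1, Cd33, Cd22, Sirpa, Cd200r1, Lair1, Pilra and Ptpn6. They were taken from a list of symbols and matched to the gene identifiers of the count tables. All 10 matched, of 46152 genes counted, and all 10 passed the filter on low counts that left 28419 genes for testing. The libraries came from C57BL/6J mice given either vehicle (Tween 80 with Hydroxymethyl Propyl-cellulose) or the same vehicle with GW2580, an inhibitor of the kinase of the colony stimulating factor 1 receptor. The dose was 80 mg/kg/d, and gavage went on for 8 days in both groups. Each group held 5 adult mice, 2 male and 3 female, without any transgene or deletion, and each mouse gave 1 library. Brain cells were enriched on Percoll and by magnetic selection for CD11b, which microglia share with monocytes, granulocytes and border macrophages, so the selection does not separate these cells. The comparison asks how the RNA of these cells differs after the kinase of the receptor is inhibited.

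Siglecs are surface lectins that bind sialic acid on the glycans of other cells. Most inhibitory members, and receptors such as SIRPα, LAIR1 and PILRα, carry a tyrosine motif (ITIM) in their tail, and when it is phosphorylated by Src family kinases it recruits SHP-1, the product of Ptpn6, which removes phosphate from activating signals. Siglec-H lacks such a tail and pairs with the adaptor DAP12, the product of Tyrobp, and CD200R signals through a different motif. In the brain, SIRPα binds CD47 and CD200R binds CD200, both on the surface of neurons among other cells, and these pairs are known as brakes on phagocytosis and activation of microglia.

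The genes lie on 5 chromosomes in GRCm38.p6, and 5 of the 10 are on chromosome 7. These are Siglech (chr7:55768154-55779448), Siglece (chr7:43648882-43672044), Cd33 (chr7:43527399-43537424), Cd22 (chr7:30865404-30880342) and Lair1 (chr7:4007073-4073567). The others are Siglec1 (chr2:131067801-131086778), Sirpa (chr2:129591042-129632228), Cd200r1 (chr16:44765736-44794977), Pilra (chr5:137821952-137836278) and Ptpn6 (chr6:124720707-124738709). RefSeq promoter sequences (GRCm38.p6) were found for 7 of the 10, and those of Siglec1, Sirpa and Cd200r1 were not among them. The letters GAGGAA, the core recognised by the myeloid factor PU.1, and their reverse complement TTCCTC were searched in the 250 bases before an annotated start of each gene. They occurred in 4 of the 7 promoters (Siglece, Cd33, Lair1 and Pilra), and in 23.3% of all 32851 promoters of the same length. Siglece held 3 copies, at 87, 36 and 11 bases before the start, Lair1 held 1 at 26 bases and Cd33 held 1 at 226 bases. The start used lay inside the gene span given above for Siglech, Siglece, Cd33, Cd22 and Lair1, and at its edge for Pilra and Ptpn6. Distances are counted from the start used and not from the edge of the span. A match describes letters and not a bound site. The 4 sequences printed next are all from chromosome 7, and they set the promoter with most copies, a promoter with 1 copy near the start and a promoter with 1 distant copy beside that of the gene with the highest level per length, in which the letters did not occur. They are Siglece (chr7:43660162-43660411, minus strand), Lair1 (chr7:4063205-4063454, minus strand), Cd33 (chr7:43533172-43533421, minus strand) and Siglech (chr7:55767934-55768183, plus strand), 5′ to 3′, with the motif in capitals.
Siglece: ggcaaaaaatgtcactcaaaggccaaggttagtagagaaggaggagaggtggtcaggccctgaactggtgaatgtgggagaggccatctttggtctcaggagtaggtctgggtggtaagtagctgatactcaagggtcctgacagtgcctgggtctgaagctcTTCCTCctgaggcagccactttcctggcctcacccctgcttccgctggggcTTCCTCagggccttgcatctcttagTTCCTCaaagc
Lair1: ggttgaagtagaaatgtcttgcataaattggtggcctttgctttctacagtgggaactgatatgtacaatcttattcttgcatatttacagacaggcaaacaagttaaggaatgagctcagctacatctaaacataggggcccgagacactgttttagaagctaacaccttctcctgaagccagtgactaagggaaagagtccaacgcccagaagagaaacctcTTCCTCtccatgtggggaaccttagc
Cd33: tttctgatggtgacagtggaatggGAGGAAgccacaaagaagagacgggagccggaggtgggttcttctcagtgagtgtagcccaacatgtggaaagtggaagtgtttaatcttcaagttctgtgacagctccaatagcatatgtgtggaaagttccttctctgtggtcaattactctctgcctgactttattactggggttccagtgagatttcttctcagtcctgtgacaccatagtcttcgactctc
Siglech: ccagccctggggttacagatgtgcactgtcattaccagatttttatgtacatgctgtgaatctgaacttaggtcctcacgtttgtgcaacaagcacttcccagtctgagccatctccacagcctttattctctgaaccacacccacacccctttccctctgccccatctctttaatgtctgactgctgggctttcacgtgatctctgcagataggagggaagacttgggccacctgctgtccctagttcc

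Between 12550418 and 26079343 fragments per library were assigned to genes, and levels are given as CPM, counts brought to the same library total, after TMM scaling, which aligns libraries by a trimmed mean of their gene ratios. The scaling factors ran from 0.691 in GW2580 3 to 1.61 in GW2580 4. Without this scaling the median log2 fold change over all genes shifted by 0.26. The share of records on no annotated exon was 38.4% to 49.1% with vehicle and 38.7% to 60.1% with GW2580. It was highest in GW2580 4 (60.1%) and GW2580 1 (56.1%), and the group means were 43.5% and 50.4%. Results with this share as a covariate are given at the end. Microglial markers were abundant in every library, with P2ry12 at 1482 to 6824 CPM and Tmem119 at 2710 to 12451 CPM, although Aif1 was at 0 in all libraries. Whether the 0 of Aif1 reflects its expression or the counting was not tested. The 15 listed microglial markers summed to 23569 to 44604 CPM with vehicle and to 30062 to 92978 CPM with GW2580. The first principal component held 47.1% of the variance. On it vehicle 5 (77.9) lay on the side of GW2580 1, 3 and 4 (37.8 to 46.4) and beyond them. GW2580 5 (-45.8) lay with the other 4 vehicle libraries (-40.5 to -35.0), and GW2580 2 (-5.20) lay between. On the second component (26.5%) vehicle 5 (67.6) stood apart from GW2580 1, 3 and 4 (-43.8, -0.61 and -52.7). GW2580 5 (-5.23) lay on the second component near vehicle 1, 3 and 4 (0.25, -0.014 and 0.38). It also lay near GW2580 2 and 3 (-5.56 and -0.61), and vehicle 2 was at 39.6. Vehicle 5 and GW2580 5 thus stood on the side of the other group on the first component. For vehicle 5 this held on the first component only, and the second did not set GW2580 5 apart from either group. Results that rest on these 2 libraries are given with and without them. Because the libraries were picked for their place in the same data, p-values without them do not stand as independent evidence. Each library is a pool of selected cells, so fewer cells of a type and less RNA per cell cannot be told apart.

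Of the 10 genes, 1 was called different with GW2580, at a fold change over 2 with an unadjusted p under 0.05. It was Sirpa, which was higher. The same rule called 10.7% of all genes tested in both directions together (3046 of 28419), 4.01% higher and 6.7% lower, so the share among the 10 genes (1 of 10) was close to that of all genes. No gene passed a Benjamini-Hochberg adjusted p of 0.05 in edgeR's quasi-likelihood test, where 4186 had an unadjusted p under 0.05, while the likelihood ratio test of edgeR passed 53 genes, its exact test 28, DESeq2 177 and limma-voom 0. Fold changes were above 0 on the log2 scale for 7 genes and below 0 for 3, with a median of 0.24 against -0.026 over all genes tested. The CPM ranges of the groups overlapped for all 10 genes, and 3.03% of all genes tested had ranges that did not overlap.

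**Figure D1:**
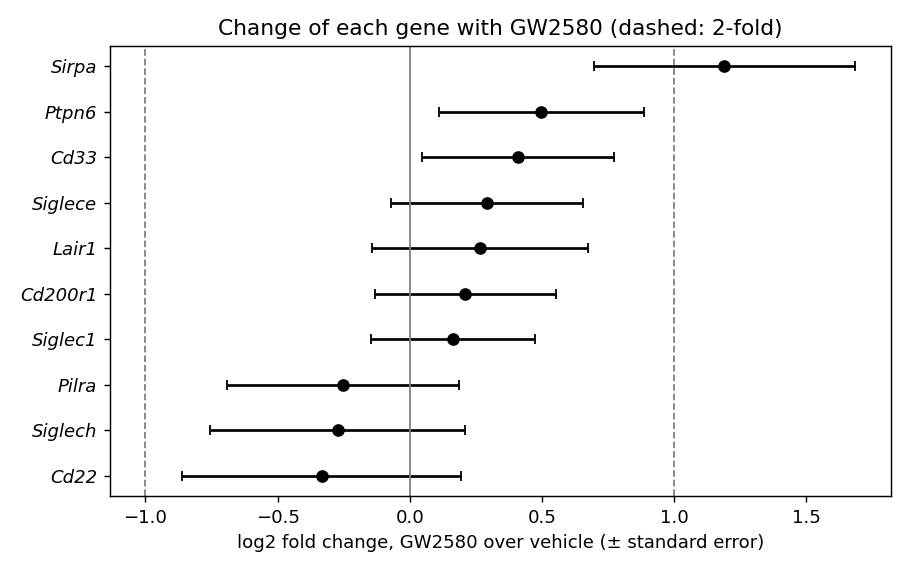
Log2 fold change of each gene, GW2580 over vehicle, from edgeR (5 libraries per group). Points are estimates, bars are standard errors and dashed lines mark 2-fold. Only Sirpa (1.19) lies beyond a dashed line.

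Sirpa encodes SIRPα, the receptor for CD47. Its level in the vehicle libraries was 726, 553, 803, 684 and 1284 CPM (libraries 1 to 5), and in the GW2580 libraries 2182, 1037, 3733, 1683 and 602 CPM. GW2580 1, 3 and 4 lay above every vehicle library, GW2580 2 lay within the vehicle range because vehicle 5 was the highest of its group, and GW2580 5 lay below 4 of the 5 vehicle libraries. The means were 810 ± 280 and 1847 ± 1215 CPM (SD, n = 5), and the log2 fold change was 1.19 ± 0.49 (SE, edgeR unadjusted p = 0.0303, adjusted p = 0.302). A two-sided exact permutation test of the mean log2 CPM, whose smallest possible p is 0.00794, gave p = 0.0873 (n = 5 and 5). The call was lost without GW2580 3 (log2 fold change 0.77, edgeR unadjusted p = 0.0935) and without GW2580 1 (1.13, unadjusted p = 0.0559). It was also lost without any 1 of vehicle 1 to 4 (1.07 to 1.19, edgeR unadjusted p = 0.0560 to 0.0736), and without vehicle 2 and vehicle 5 together (1.31, edgeR unadjusted p = 0.0514). Without vehicle 5 the log2 fold change was 1.42 (edgeR adjusted p = 0.170), and without both vehicle 5 and GW2580 5 it was 1.54 (edgeR adjusted p = 0.0389). In the fit without both, 4844 of 27215 genes tested had an adjusted p under 0.05, so passing it was not particular to Sirpa.

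Csf1r, which encodes the receptor that GW2580 inhibits, was at 2486, 1805, 2634, 2156 and 5324 CPM with vehicle and at 7879, 3836, 14653, 6493 and 2108 CPM with GW2580. Like Sirpa it was highest of the vehicle libraries in vehicle 5, highest of all in GW2580 3 and lowest of the GW2580 libraries in GW2580 5. Its log2 fold change was 1.28 ± 0.56 (SE, edgeR unadjusted p = 0.0394, adjusted p = 0.318). Relative to the mean log2 CPM of the 14 microglial markers that passed the filter, Sirpa was 0.54 higher on the log2 scale with GW2580 (two-sided exact permutation p = 0.238, n = 5 and 5).

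Siglech, whose product is a microglial surface lectin that signals through DAP12, had the highest level per exon length of the 10 genes with vehicle. Its total level was at 1821, 1772, 2166, 2113 and 479 CPM with vehicle, and at 1089, 1664, 2138, 576 and 1445 CPM with GW2580. Vehicle 5 had the lowest level of all 10 libraries, and vehicle 1 to 4 lay above 4 of the 5 GW2580 libraries. The group means of 1670 ± 688 and 1382 ± 589 CPM (SD, n = 5) did not differ beyond the spread (log2 fold change -0.27 ± 0.48 SE, edgeR adjusted p = 0.811). Without vehicle 5 and GW2580 5 the log2 fold change of Siglech was -0.62 (edgeR unadjusted p = 0.215). Relative to the microglial markers it was -0.67 (exact permutation p = 0.119). That value became -0.97 without vehicle 5 (exact permutation p = 0.0159, n = 4 and 5), and Siglece then also passed, at -0.30 (exact permutation p = 0.0317). With all 10 libraries no gene of the 10 passed. This comparison was made for the 10 genes only, so the share of all genes that would pass is not known. Vehicle 5 was left out for its place in the same data. The markers were themselves mostly higher with GW2580. With all 10 libraries 13 of the 14 had a log2 fold change above 0, with a median of 0.52. A value relative to them can therefore fall without a fall of the gene. Without vehicle 5 the log2 fold change of Siglech itself was -0.51 (edgeR unadjusted p = 0.277). That of Siglece was 0.14 (edgeR unadjusted p = 0.698).

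Tyrobp, the adaptor through which Siglec-H signals, was at 3525, 2243, 2923, 2286 and 193 CPM with vehicle and at 354, 1024, 728, 169 and 4387 CPM with GW2580. The level was at or above 1024 CPM in vehicle 1 to 4, GW2580 2 and GW2580 5, and below it in the remaining libraries. Its log2 fold change was -0.75 ± 0.83 (SE, edgeR adjusted p = 0.683). Tyrobp was called lower without vehicle 5 and GW2580 5, a fit that called 6057 of 27215 genes tested. It was not called without vehicle 2 and vehicle 5. Siglech and Tyrobp thus shared their lowest libraries, vehicle 5 and GW2580 4, but differed in others. GW2580 5 was highest of all for Tyrobp (4387 CPM) and not for Siglech (1445 CPM). GW2580 3 held 728 CPM of Tyrobp and 2138 CPM of Siglech.

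Ptpn6, which encodes SHP-1, was at 480, 389, 440, 434 and 456 CPM with vehicle and at 577, 699, 1134, 373 and 320 CPM with GW2580. The vehicle libraries were close together, GW2580 1 to 3 lay above all of them and GW2580 4 and 5 below all of them. The means were 440 ± 33.6 and 621 ± 325 CPM (SD, n = 5; log2 fold change 0.50 ± 0.39 SE, edgeR adjusted p = 0.550, exact permutation p = 0.349). Relative to the microglial markers the log2 difference of Ptpn6 was -0.093 (exact permutation p = 0.635).

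**Figure D2:**
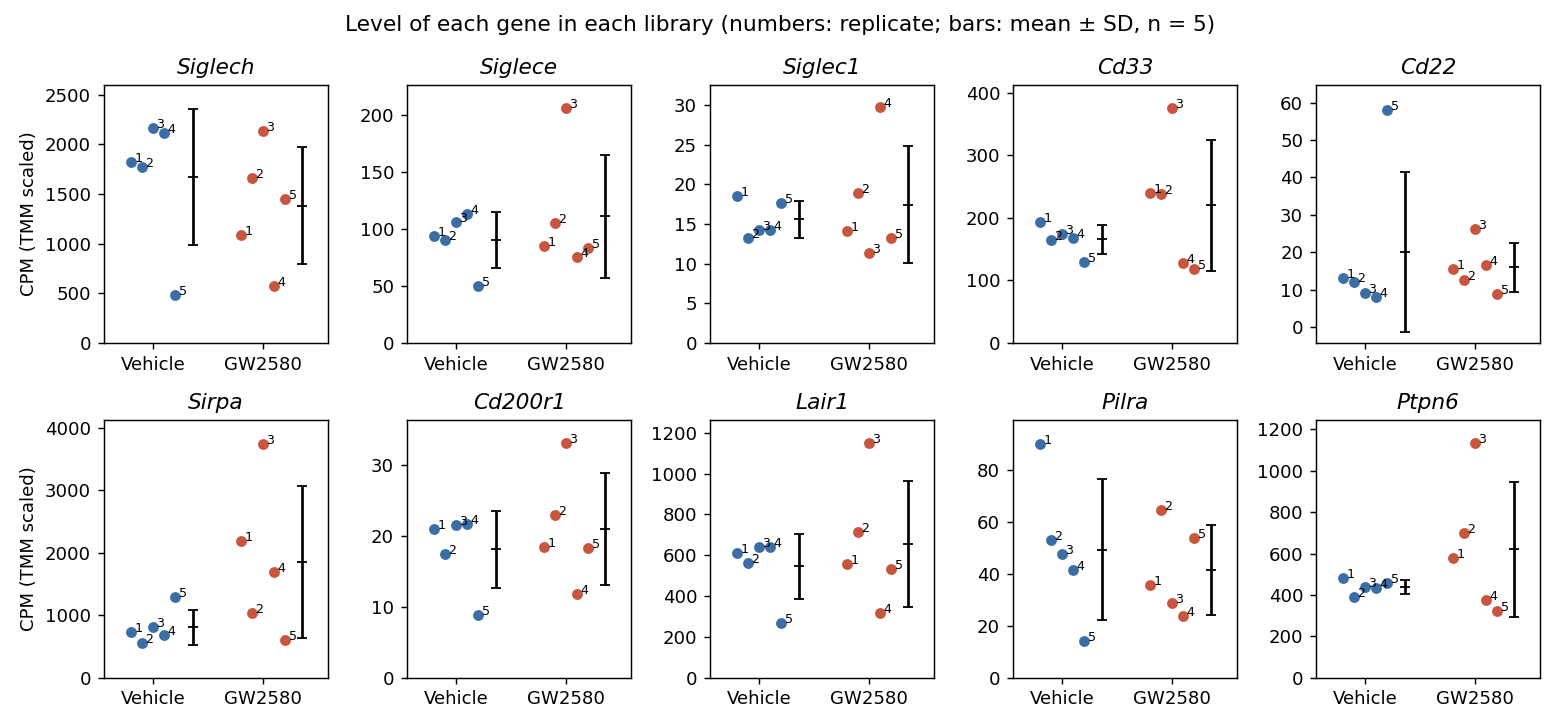
CPM of each of the 10 genes in each library, by group, with group mean and SD (n = 5). Points of vehicle and GW2580 overlap for every gene, and Sirpa reaches 3733 CPM in GW2580 3.

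Among the other Siglecs, Cd33 and Siglece had the higher levels per exon length. Cd33 ran from 130 to 193 CPM in the vehicle group and from 118 to 376 CPM in the GW2580 group (log2 fold change 0.41 ± 0.36 SE, edgeR adjusted p = 0.601). Siglece, whose product carries an ITIM, ran from 49.8 to 113 CPM with vehicle and from 75.0 to 206 CPM with GW2580 (0.29 ± 0.36 SE, edgeR adjusted p = 0.723). Siglec1, the sialoadhesin of border and inflammatory macrophages, was at 13.3 to 18.5 CPM and 11.3 to 29.7 CPM (0.16 ± 0.31 SE, edgeR adjusted p = 0.829). These 3 genes had their highest level in a GW2580 library: GW2580 3 for Cd33 and Siglece, GW2580 4 for Siglec1. The 12 listed border macrophage markers summed to 232 to 408 CPM with vehicle and to 196 to 756 CPM with GW2580, with Clec10a at 0 in all libraries, and to 274 CPM in GW2580 4, and their part in the Siglec1 values was not tested.

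Cd22, best known as an inhibitory co-receptor of B cells, was at 13.2, 11.97, 9.19, 8.15 and 58.1 CPM in vehicle 1 to 5. In the GW2580 libraries it was at 15.5, 12.7, 26.3, 16.6 and 8.87 CPM. Vehicle 5 was 5.46 times the mean of the other 4 vehicle libraries and exceeded all other libraries. The log2 fold change was -0.33 ± 0.53 (SE, edgeR adjusted p = 0.786), and it turned to 0.59 without vehicle 5. Without vehicle 5 and GW2580 5 it was 0.64 (edgeR unadjusted p = 0.0429, adjusted p = 0.130), below a 2-fold difference. The 10 listed B cell markers summed to 183 to 600 CPM with vehicle, the highest in vehicle 5, and to 102 to 282 CPM with GW2580. None of these markers was at 0 in any library. Of these markers, Cd79b was at 61.1 CPM in vehicle 5, the lowest of the vehicle libraries. The part of B cell RNA in the Cd22 value was not tested.

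The remaining receptors did not pass the test. Lair1, a collagen receptor, ran from 270 to 642 CPM in the vehicle group and from 319 to 1149 CPM in the GW2580 group (log2 fold change 0.27 ± 0.41 SE, edgeR adjusted p = 0.779). Cd200r1, the receptor for CD200, was at 8.82 to 21.6 CPM and 11.8 to 33.1 CPM (0.21 ± 0.34 SE, edgeR adjusted p = 0.794). Both were lowest in vehicle 5 and highest in GW2580 3. Pilra, whose product binds sialylated ligands such as PIANP, was at 90.2, 53.1, 47.9, 41.6 and 14.2 CPM with vehicle and at 35.9, 64.8, 29.0, 23.6 and 54.0 CPM with GW2580 (-0.25 ± 0.44 SE, edgeR adjusted p = 0.808). The 13 listed monocyte and granulocyte markers summed to 30010 CPM in vehicle 1, where Pilra was highest, to 13689 CPM in GW2580 2, where it was next, and to 668 CPM in vehicle 5, where it was lowest. Their range was 668 to 30010 CPM with vehicle and 801 to 13689 CPM with GW2580, with none at 0 in any library, and their part in the Pilra values was not tested. Pilra shares 468 exon bases, 18.1% of its exons, with Zcwpw1 on the opposite strand, and fragments there could not be assigned because counting ignored strand. The same held for smaller shares of Siglece and Siglech. Siglece shares 414 bases (7.86%) with Ceacam18 and 74 bases (1.40%) with Ctu1, and Siglech shares 74 bases (1.74%) with Gm39015.

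Vehicle 5 departed from the other vehicle libraries in both directions. Relative to their mean it held 0.244 times the Siglech, 0.243 times the Pilra, 0.432 times the Cd200r1, 0.440 times the Lair1 and 0.494 times the Siglece. It held 1.86 times the Sirpa, and Ptpn6 (1.05 times) and Siglec1 (1.17 times) were near the others. GW2580 5 was lowest of its group for Cd33, Cd22, Sirpa and Ptpn6.

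Levels between genes were compared per kilobase of exon (CPM per kb). With vehicle, Siglech stood first at 393 ± 162 (SD, n = 5), followed by Ptpn6 at 167 ± 12.8, Sirpa at 128 ± 44.4 and Lair1 at 123 ± 35.4. Then came Cd33 at 52.8 ± 7.27, Pilra at 19.1 ± 10.5, Siglece at 17.2 ± 4.67, Cd200r1 at 9.56 ± 2.89, Cd22 at 4.29 ± 4.55 and Siglec1 at 1.96 ± 0.29. Lair1 over Cd33, Cd33 over Pilra and Siglece over Cd200r1 held in 5 of 5 vehicle libraries. Sirpa was above Lair1 in only 1 of 5, vehicle 5 (203 against 60.8), and Lair1 was above Sirpa in vehicle 1 to 4. The order of the means of Sirpa and Lair1 therefore rested on vehicle 5. Pilra was above Siglece in 2 of 5, so these neighbours did not differ beyond their spread. With GW2580, Siglech was again first at 325 ± 139 and Sirpa was second at 293 ± 193.

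**Figure D3:**
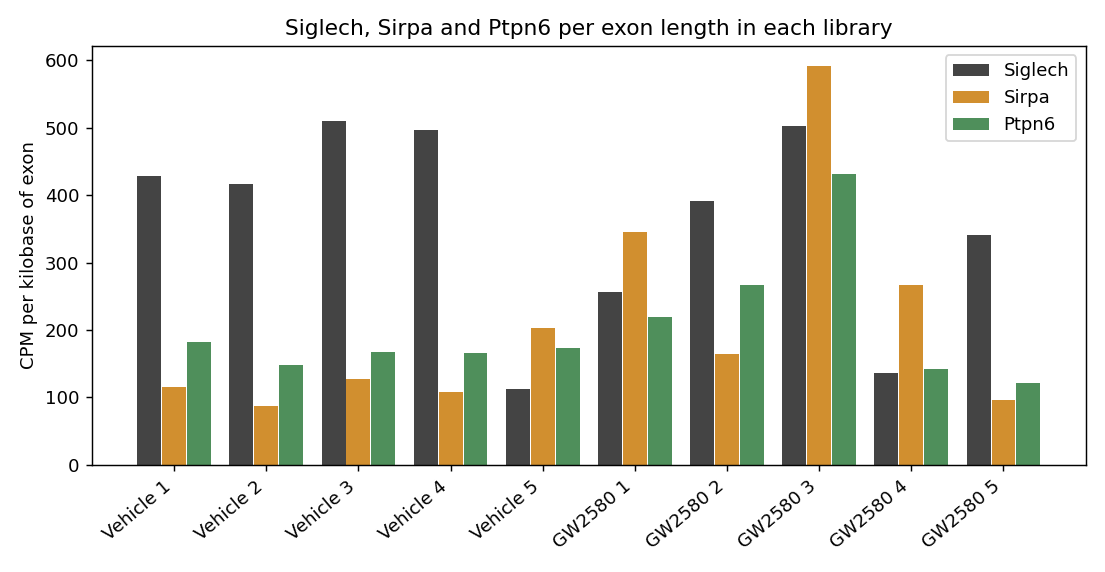
CPM per kilobase of exon for Siglech, Sirpa and Ptpn6 in each of the 10 libraries (bars start at 0, 1 mouse per library). Sirpa exceeds Siglech in vehicle 5 and in GW2580 1, 3 and 4, and Siglech exceeds Sirpa in the other 6.

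The ratio of Sirpa to Siglech per kb, looked at after the values were seen and so given without a test, was 0.268, 0.210, 0.250, 0.218 and 1.80 in vehicle 1 to 5. In GW2580 1 to 5 it was 1.35, 0.420, 1.18, 1.97 and 0.281. Vehicle 5 and GW2580 5 each carried the ratio typical of the other group. Of the summed level of the 10 genes per kb, Siglech made up 43.1% to 48.7% in vehicle 1 to 4, 18.01% in vehicle 5, 19.6% to 34.9% in GW2580 1 to 4 and 44.5% in GW2580 5, and Sirpa made up 32.5% in vehicle 5 and 38.5% in GW2580 4.

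The genes differed in their pattern over the libraries. Over the 10 libraries the closest pair by root mean square difference of centred log2 CPM was Cd200r1 and Lair1 (0.093), then Cd33 and Ptpn6 (0.17), and the most distant pair was Cd22 and Pilra (1.44). Siglech and Sirpa differed by 1.28. Among 7577 genes with a mean CPM of at least 20, those most like Sirpa were Mertk (0.094) and Tnfrsf1b (0.096). Those most like Siglech were Hpgds (0.12) and Creg1 (0.14), and those most like Lair1 were St3gal6 (0.063) and Cd86 (0.099). Ptpn6 was nearest to Slc41a3 (0.067) and M6pr (0.076), Cd33 to Ralb (0.096) and Ugt1a7c (0.098), and Siglece to Slc7a7 (0.12) and Lgmn (0.13). Pilra had no close match, the nearest being Cxcl10 (0.30) and Tspan32 (0.36). All points share the same 10 libraries, so these values are descriptions.

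Genes that act with the receptors were described by list. Of 14 ligand genes tested, 5 fell and 0 rose (Pianp, Npdc1, Col1a1, Col1a2 and Col3a1), with a median log2 fold change of -0.67, where the same rule called 6.7% of all genes tested lower and 4.01% higher. The 3 collagen genes encode ligands of LAIR1 and the other 2 encode ligands of PILRα. Npdc1, the largest of the 5 differences, was at 92.9 CPM in vehicle 5, 32.6 CPM in vehicle 2, 4.69 to 7.35 CPM in the remaining vehicle libraries and 1.85 to 8.76 CPM with GW2580 (log2 fold change -2.37 ± 0.77 SE, edgeR adjusted p = 0.280). Vehicle 5 was also highest for Col1a1 (75.3 CPM, against 10.5 to 16.9 CPM in the other vehicle libraries), and oligodendrocyte markers summed to 17936 CPM in vehicle 2 and 4371 CPM in vehicle 5 against 164 to 339 CPM in the other vehicle libraries and 179 to 1779 CPM with GW2580. Their part in the ligand values was not tested. Without vehicle 2 and vehicle 5, 0 of the 14 ligand genes were called (edgeR), and without vehicle 5 and GW2580 5 only Pianp was, lower. Cd47, the SIRPα ligand, averaged 230 ± 19.8 CPM in the vehicle group and 197 ± 80.2 CPM in the GW2580 group (SD, n = 5; log2 fold change -0.22, edgeR adjusted p = 0.780).

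Of 22 signal partners of SHP-1, 1 rose and 1 fell, with a median of 0.31, and this share of 2 in 22 was close to the 10.7% of all genes tested. Plcg2, a phospholipase downstream of immune receptors, ran from 56.3 to 112 CPM in the vehicle group and from 89.8 to 326 CPM in the GW2580 group (log2 fold change 1.10 ± 0.40 SE, edgeR unadjusted p = 0.0149, adjusted p = 0.280), and was still called without vehicle 2 and vehicle 5 and without vehicle 5 and GW2580 5. Ptpn11, which encodes the related phosphatase SHP-2, was at 39.4 to 176 CPM with vehicle, the highest in vehicle 2, and at 20.5 to 46.0 CPM with GW2580 (-1.39 ± 0.43 SE, edgeR unadjusted p = 0.00562, adjusted p = 0.280), and it was still called without vehicle 5 and GW2580 5 but not without vehicle 2 and vehicle 5. Without vehicle 5 and GW2580 5 the rule called 6057 of 27215 genes tested, and without vehicle 2 and vehicle 5 it called 2335 of 27463. Lyn, a Src family kinase that phosphorylates ITIMs, had a log2 fold change of 0.89 ± 0.39 (SE, edgeR unadjusted p = 0.0391), under 2-fold. Inpp5d, which encodes the lipid phosphatase SHIP1, was at 0.78 ± 0.40 (SE, edgeR unadjusted p = 0.0680).

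No gene was called by edgeR in 4 further lists. They were 3 other Siglecs tested, with a median log2 fold change of -0.46 (Siglec15 was at 0 in all libraries), 20 other inhibitory receptors (median -0.027), 12 activating partners (median -0.23) and 17 genes that make or remove sialic acid (median 0.13). Neu1, of the last list, was also at 0 in all libraries. Vsir, which encodes the checkpoint VISTA, averaged 1267 ± 137 CPM in the vehicle group and 2017 ± 1152 CPM in the GW2580 group (SD, n = 5; edgeR adjusted p = 0.456). Fcgr2b, the inhibitory Fc receptor, was at 331 ± 119 CPM and 289 ± 131 CPM (edgeR adjusted p = 0.848). St3gal6 and St3gal5, sialyltransferases, had log2 fold changes of 0.17 and 0.27 (edgeR adjusted p = 0.856 and 0.749).

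Male and female mice were compared for the 10 genes in a fit with treatment and sex. The lowest unadjusted p was that of Pilra, 0.78 higher in males on the log2 scale (edgeR unadjusted p = 0.0789, adjusted p = 1). The effect of GW2580 was not shown to differ by sex for any of the 10 genes (interaction, edgeR unadjusted p = 0.528 for Cd22, the lowest, to 0.977 for Cd33). In males alone the log2 fold change of Sirpa was 1.24 (edgeR unadjusted p = 0.0524) and in females alone 1.14 (edgeR unadjusted p = 0.199).

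**Figure D4:**
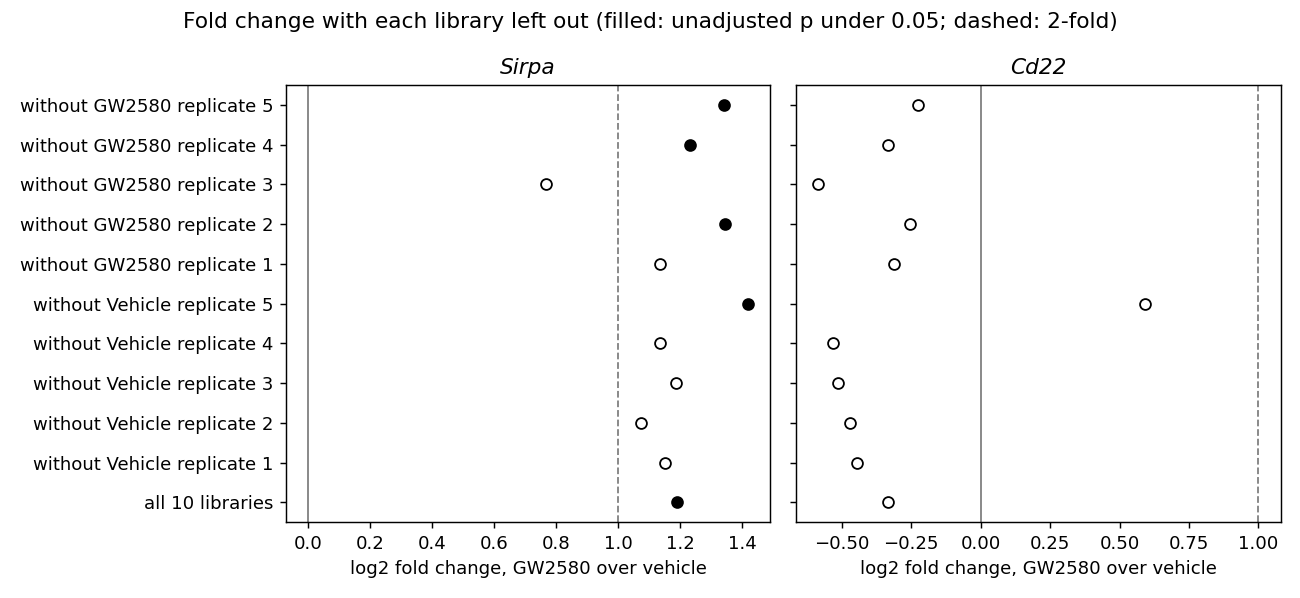
Log2 fold change of Sirpa and Cd22 (GW2580 over vehicle, edgeR) with all 10 libraries and with each library left out in turn. Sirpa stays between 0.77 and 1.42, and Cd22 ranges from -0.58 to 0.59.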

How the data were processed

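RNA was sequenced from 5 vehicle and 5 GW2580 libraries, 1 per mouse (SMART-Seq v4, paired ends). The authors aligned the read pairs to GRCm38 and counted fragments per gene with featureCounts 1.6.3 without regard to strand. The deposited values are raw counts, not normalized, and the deposited gene length is in bases. Fragments that map to several places were not counted, which affects genes with close copies (Sirpa, Pilra, Cd200r1). Symbols came from the RefSeq table (GRCm38), which matched 46029 of 46152 genes. Genes that exceeded 1 CPM in 3 or more libraries were tested with edgeR 4.0.16 (quasi-likelihood, TMM, treatment only; R 4.3.3), with Benjamini-Hochberg adjustment over all 28419 genes. Exact permutation tests were two-sided and, with all 10 libraries, enumerated all 252 assignments of 5 labels per group. With a library left out they enumerated all assignments of the remaining labels. A call means a fold over 2 and unadjusted p under 0.05. The test was checked on simulated data. The members and gene lists were chosen with earlier results of these data known. All 10 genes are named, with genes of each list past the call or otherwise the 2 most abundant, and the 2 nearest in pattern. Alternatives were other tools, scalings, filters, covariates and left-out libraries. P2ry12, Tmem119, Csf1r, Lyn, Inpp5d, Cd47, Cd79b and the ratio of Sirpa to Siglech were chosen after values were seen. The smallest library had 12550418 assigned fragments, and the spread between mice limits the precision. One marker gene is not reported here.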

Additional observations from a re-analysis of the deposited data

Results flagged for a closer look

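Among 20 sets of 5 libraries (10 genes in each group), 4 held a library far from the others by Dixon's test at the 95% level, under which chance alone gives about 1 in 20. Siglech in vehicle 5 (479 CPM, the next library at 1772) and Lair1 in vehicle 5 (270 CPM, the next at 560) were low. Cd22 in vehicle 5 (58.1 CPM, the next at 13.2) and Siglece in GW2580 3 (206 CPM, the next at 105) were high. Of the 4, 3 concern vehicle 5, the library that lay on the GW2580 side of the first principal component.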

How the results depend on the processing

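Sirpa stayed above 0 in all 29 alternatives (0.70 to 1.54) and had an unadjusted p under 0.05 in 17. Ptpn6 had an unadjusted p under 0.05 in 2 of the 29, both under 2-fold. They were library size alone (0.61, edgeR unadjusted p = 0.0316, adjusted p = 0.273) and the share on no annotated exon as a covariate (0.75, edgeR unadjusted p = 0.0383, adjusted p = 0.656). The number of the 10 genes called (1) became 0 with limma-voom, a replicate block, the microglial list as a covariate, without vehicle 2 and vehicle 5, in males only, in females only and at an adjusted p under 0.05, and ranged from 0 to 1 when each library was left out. All genes called (3046) became 4802 with no filter, 873 above 5 CPM in at least 5 libraries, 1181 with the share on no annotated exon and 1575 with the microglial list as covariates, 6057 without vehicle 5 and GW2580 5, 4621 in males, 794 in females and 0 at an adjusted p under 0.05, and ranged from 1684 to 4848 when each library was left out (1684 without GW2580 1, 4848 without GW2580 5). Replicate numbers did not pair the libraries (correlations -0.57 to 0.39, own number best in 1 of 5). The replicate block gave 2554 called genes and Sirpa at 1.03 (edgeR adjusted p = 0.519). Directions that turned were, for Cd22, 0.024 (limma-voom), 0.13 (block), 0.14 (no-exon share), 0.32 (glial and neuronal lists), 0.59 (without vehicle 5), 0.64 (without vehicle 5 with either GW2580 5 or vehicle 2) and 0.069 (males). Siglec1 turned to -0.13 (no-exon share), -0.11 (without GW2580 4) and -0.042 (males). With the microglial list as a covariate, Ptpn6 was -0.041, Lair1 -0.22, Cd33 -0.12, Siglece -0.17 and Cd200r1 -0.18. Without GW2580 3, Lair1 was -0.035, Siglece -0.054 and Cd200r1 -0.017. Cd200r1 was -0.019 without vehicle 5 and GW2580 5 and -0.045 without vehicle 2 and vehicle 5, Pilra was 0.075 without vehicle 1 and 0.063 in females, and Siglece was -0.045 in males. Relative to the microglial markers, which were themselves mostly higher with GW2580, 2 genes instead of 0 passed without vehicle 5 (Siglech at -0.97 and Siglece at -0.30). This was 1 of 13 alternatives, and the share of all genes that would pass was not computed. Cd22 turned to 0.19 and Ptpn6 to 0.030 without vehicle 5, and Siglec1 turned to 0.038 without GW2580 3. When each library was left out, log2 fold changes ranged from -0.054 to 0.41 for Siglece, -0.11 to 0.29 for Siglec1, -0.58 to 0.59 for Cd22, -0.017 to 0.36 for Cd200r1, -0.035 to 0.45 for Lair1 and -0.49 to 0.075 for Pilra, and relative to the microglial markers from -0.71 to 0.038 for Siglec1, -0.69 to 0.19 for Cd22 and -0.17 to 0.030 for Ptpn6. The causes were not tested. The spread between mice, with 5 libraries per group, limits what could be detected.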
